A study of Brassica napus and Orychophragmus violaceus with 4 samples.

Results

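The genes described here carry the classical auxin response symbols: *IAA* for the Aux/IAA repressors, *ARF* for the auxin response factors, *SAUR* for the small auxin up RNAs and *GH3* for the amido synthetases. They were chosen by symbol alone, as every gene of the deposited read table named IAA, ARF or SAUR with a number or GH3 with a point and a number. This gave 98 of 37441 *Brassica rapa* genes, which the table matched to 47 genes of *Arabidopsis thaliana*. Of the 98 genes, 37 were counted as Aux/IAA, 24 as *ARF*, 30 as *SAUR* and 7 as *GH3*. Bra016517 and Bra025720, listed as *IAA22*, were matched to AT1G19220, the locus of *ARF19*, and were counted with the *ARF* genes. None of the *ARF* symbols belonged to an ADP-ribosylation factor, the small GTPases that share the abbreviation. *SAUR21* (Bra019022) and the *SAUR20* copy Bra026596 were 2025 and 1977 bases long, against a median of 294 bases for the *SAUR* genes. Bra019022 was matched to AT5G01830, apart from AT5G18010 to AT5G18080, the loci of *SAUR19* to *SAUR24*. It was counted as *SAUR* by its symbol only.

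Petals of half-open flowers were compared between a pair of *Brassica* materials and a pair of *Orychophragmus violaceus* materials, each as 1 library without replicates. M4 was a disomic addition line that carried the chromosomes of *B. napus* and 1 pair of *O. violaceus* chromosomes, and its yellow petals bore red pigment. H3 was its *B. napus* parent, cultivar Huashuang 3, with yellow petals. OvP was wild-type *O. violaceus* with purple petals, and OvW was its natural mutant with white petals. M4 differed from H3 by a whole chromosome pair, so no single gene separated the members of that pair. The read column assigned to M4 did not carry that name and was assigned because the other 3 columns matched the other materials. Over 14978 genes with at least 50 reads in both libraries, the M4 to H3 ratio of the deposited RPKM, reads normalised for gene length and library size, divided by the ratio of reads was 1.05 at the median, with a central 95% range of 1.04 to 1.06. All 4 libraries were mapped to the *B. rapa* genome. The paper gives *B. napus* as AACC, so reads of M4 and H3 at a *B. rapa* gene may also come from C genome copies. In M4 they may come from the added chromosomes too. Genes, copies and chromosomes below are thus those of *B. rapa*, not single loci of the plants. The gene assignments totalled 15507389, 16447021, 1850787 and 2040729 reads in M4, H3, OvP and OvW.

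Depth therefore limited the *O. violaceus* pair: 40 of the 98 genes had 10 or more reads in OvP and 49 in OvW, against 68 in M4 and 71 in H3. Taking 3 reads as the limit, a gene without reads could have had a level of up to 0.193, 0.182, 1.62 and 1.47 CPM (counts scaled to a common library size) in M4, H3, OvP and OvW. This limit covers only reads that mapped to the *B. rapa* genes. In the paper a much smaller share of the clean reads mapped for *O. violaceus* than for M4 and H3. A gene without reads in OvP or OvW may therefore have been expressed above the limit. Petal identity genes (*AP3*, *PI* and *SEP3*) summed to 5859, 6682, 7523 and 11619 RPKM in M4, H3, OvP and OvW, respectively, with reads for 8 of 8 genes in every library. Carpel and ovule genes summed to 9.34, 20.4, 15.6 and 14.3 RPKM over 8 genes. Anther and tapetum genes summed to 10.4, 12.7, 33.1 and 23.3 RPKM over 8 genes. Photosynthesis genes of green tissue summed to 165, 270, 802 and 2637 RPKM over 7 genes, and they were lower in M4 than in H3 and lower in OvP than in OvW. Of these green tissue genes, 3 of 6 tested were called lower in M4 and 6 of 7 in OvP, by the exact test and thresholds stated with the first comparison, the same direction as most genes described below. Of the petal identity genes 1 of 8 was called lower in M4, near the 12.7% of all genes called lower there, and 3 of 8 in OvP, against 5.76% of all genes. The median log2 ratio of the petal identity genes was −0.37 in M4 and −0.92 in OvP over 8 genes. That of the green tissue genes was −1.03 and −2.42 over 6 genes. Anther genes stood at −0.95 and 0.59 over 3 genes, and carpel genes at −1.47 over 5 genes and 0.28 for 1 gene. These medians take genes with 10 or more reads in the pair. The part of these marker genes in the results was not tested. In bulk petals, fewer cells of a type and less RNA per cell could not be told apart.

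Aux/IAA proteins are short-lived nuclear repressors that bind ARF transcription factors and recruit TOPLESS co-repressors to their target promoters. Auxin acts as a glue between an Aux/IAA protein and the TIR1/AFB F-box receptors, so the repressor is destroyed and the ARF is released. Many Aux/IAA, *SAUR* and *GH3* genes are themselves early targets of this pathway in *Arabidopsis*: SAUR proteins promote cell expansion, and several GH3 enzymes conjugate auxin to amino acids. In *Arabidopsis* petals, the late expansion of cells is among the processes in which auxin and ARF8 are known to act.

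A gene was called different within a pair when the exact binomial test of edgeR, scaled by the trimmed mean of M values (TMM), gave a p of at most 0.01 and the ratio was at least 2 or at most 0.5. With 1 library per material this test compared libraries and not conditions, and its intervals hold counting error only. In M4 against H3, 93 of the 98 genes had reads, and 4 of them were called higher and 39 lower, while 50 were not called. Among all 34286 tested genes, 16.2% were called higher and 12.7% lower, so the share of lower calls among the auxin genes, 41.9%, stood above the background and the share of higher calls, 4.30%, below it. The median log2 ratio of M4 to H3 was −1.09 over the 77 auxin genes that reached 10 reads in the pair, against 0.05 over 25546 genes. Total reads as the scale moved these medians to −0.71 and 0.44 and left 24 genes lower and 4 higher, with 7.98% of all genes lower and 22.9% higher. An assumed biological coefficient of variation (BCV) of 0.4, standing in for the spread between plants that 1 library cannot show, left 9 lower and 2 higher, with 2.72% of all genes lower and 4.48% higher. In OvP against OvW, 93 genes had reads, of which 0 were called higher and 19 lower, against 5.60% and 5.76% of 33743 tested genes. With total reads 17 were lower, against 5.16% of all genes, and 0 higher, against 6.43%, and at a BCV of 0.4 only 3 were called, each lower, against 1.88% of all genes called in either direction. The same test gave 0 higher calls with DESeq2 size factors, and 4 of the genes had an unadjusted p under 0.05 with a ratio above 1. The median log2 ratio of OvP to OvW was −0.91 over 57 genes, against 0.00 over 19141 genes.

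**Figure D1:**
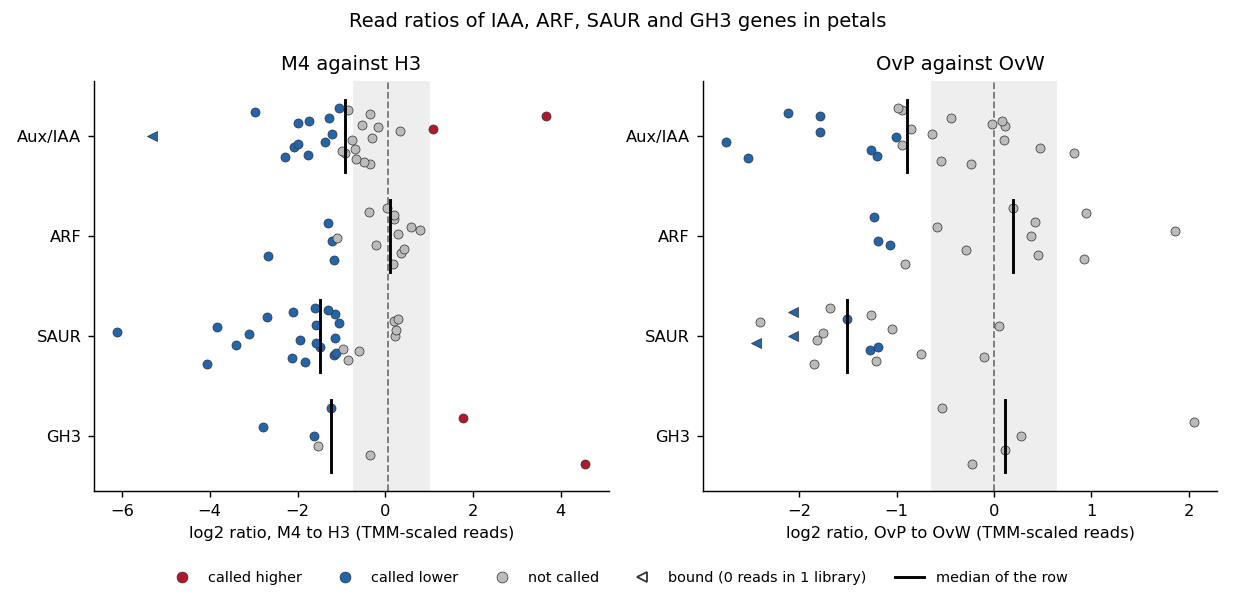
Log2 ratio of TMM-scaled reads for each gene with 10 or more reads in the pair, by family, for M4 to H3 (left) and OvP to OvW (right). Colours give the calls, triangles are bounds for genes with 0 reads in 1 library, black bars are family medians, and the grey band and dashed line are the quartiles and median of all genes. The *SAUR* medians lie near −1.49 and −1.51, outside the band in both panels, whereas the *ARF* medians of 0.10 and 0.20 lie inside it.

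The families did not share one pattern. The shares of all genes called higher and lower were 16.2% and 12.7% in M4 and 5.60% and 5.76% in OvP. Of 34 tested Aux/IAA genes, 2 were called higher and 12 lower in M4, a share of 35.3% lower, with a median log2 ratio of −0.91 over 27 genes. Of 23 tested *ARF* genes, 0 were called higher and 4 lower, a share of 17.4% lower, near that of all genes. Their median was 0.10 over 16 genes, and with total reads 1 stayed lower. Of 29 tested *SAUR* genes, 0 were called higher and 20 lower, a share of 69.0%, with a median of −1.49 over 27 genes. Of 7 *GH3* genes, 2 were called higher and 3 lower, with a median of −1.24 over 7 genes. In *O. violaceus*, 9 of 36 tested Aux/IAA genes, 4 of 21 *ARF* genes, 6 of 29 *SAUR* genes and 0 of 7 *GH3* genes were called lower in OvP, and the family medians were −0.90, 0.20, −1.51 and 0.12. The unadjusted p was under 0.05 with a ratio above 1 in OvP for 2 Aux/IAA, 1 *ARF*, 0 *SAUR* and 1 *GH3* genes, and in M4 for 4 *ARF* genes and 1 *SAUR* gene.

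Among the 98 genes chosen by symbol, the highest level in the *Brassica* petals was that of *IAA9*. Its copy Bra024406 had 1133, 1084, 452 and 662 RPKM in M4, H3, OvP and OvW. This copy was called different in neither pair. In *O. violaceus* the highest of the 98 was *IAA17* (Bra032520, also known as *AXR3*), with 2239 and 1996 RPKM in OvP and OvW but 3.67 and 11.2 RPKM in M4 and H3. The species mapped to the *B. rapa* reference at different depths, so these levels are set side by side without a test.

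Several Aux/IAA genes of low to moderate level were called lower in M4. *IAA5* (Bra026755), an auxin-inducible member in *Arabidopsis*, had 0, 97, 3 and 0 reads in M4, H3, OvP and OvW. By its 95% limit it was at least 31.7-fold lower in M4 than in H3. *IAA1* (Bra039732) had 38, 240, 1 and 0 reads in M4, H3, OvP and OvW. Its M4 to H3 ratio was 0.129 (95% interval 0.0889 to 0.182). H3 thus held most of the reads of both genes. *IAA11* (Bra011045) had 238, 946, 91 and 217 reads in M4, H3, OvP and OvW, with ratios of 0.204 (0.177 to 0.236) in M4 and 0.436 (0.337 to 0.559) in OvP. It was low in the pigmented material of either pair. Its second copy Bra024187 had 190, 261, 198 and 414 reads and was called only in OvP, at 0.497 (0.417 to 0.590), a call lost with total reads.

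Both copies of *IAA18*, which in *Arabidopsis* acts in embryo and root patterning, were called lower in M4. Bra018938 had 130 reads in M4 against 447 in H3, a ratio of 0.236 (0.193 to 0.288), and 9 and 18 reads in OvP and OvW. Bra014303 had 277 and 761 reads in M4 and H3, a ratio of 0.296 (0.257 to 0.340). In *O. violaceus* the same copy had 46 reads in OvP and 27 in OvW, a ratio of 1.77 that was not called.

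Some Aux/IAA genes of higher level were also called lower in M4. *IAA4* (Bra027504) had 4430, 8328, 447 and 1597 reads in M4, H3, OvP and OvW, with ratios of 0.432 (0.417 to 0.448) and 0.291 (0.261 to 0.323). *IAA2* (Bra033890) had 2888, 5727, 34 and 122 reads, with ratios of 0.410 (0.392 to 0.429) and 0.290 (0.192 to 0.427). These *IAA4* and *IAA2* copies were called lower in both pairs, although the M4 calls were lost with total reads, where the ratios rose above 0.5. The further *IAA2* copies split: Bra023771 had 1657 reads in M4 and 3487 in H3 and was called lower, a call lost with total reads, and Bra001899, with 405 and 421 reads, was not. *IAA7* (Bra033886, known as *AXR2*) had 849 reads in M4 against 2299 in H3, a ratio of 0.300 (0.277 to 0.325). In OvP and OvW it had 488 and 686 reads and was not called.

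Few Aux/IAA genes went the other way. *IAA15* (Bra035185) had 31, 2, 2 and 0 reads in M4, H3, OvP and OvW, and was 12.6-fold higher in M4, although its interval ran from 3.21 to 109. *IAA17* copy Bra030560 had 730, 281, 849 and 814 reads in M4, H3, OvP and OvW, a ratio of 2.11 (1.84 to 2.43) in M4. In contrast, copy Bra032520 had 40, 130, 2893 and 2834 reads, a ratio of 0.250 (0.171 to 0.359) in M4. *IAA17* was the only one of 27 *Arabidopsis* genes with 2 or more *B. rapa* copies whose copies were called in both directions. The remaining copy Bra015298, which led in the *Brassica* libraries, had 1370 reads in M4 and 2207 in H3, and the sum over the copies, at a ratio of 0.664, was not called.

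Among Aux/IAA genes with reads in both OvP and OvW, the lowest ratios in OvP were those of *IAA13*, a close relative of the embryo patterning gene *BODENLOS*. Bra022934 had 14, 45, 4 and 28 reads in M4, H3, OvP and OvW, and was called lower in both pairs at 0.253 (0.128 to 0.469) and 0.148 (0.0378 to 0.424). Bra005508 had 138, 179, 3 and 18 reads and was called in OvP at 0.173 (0.0327 to 0.593). Both copies thus had few reads in OvP, 7 in all. *IAA9* copy Bra037824 had 4813, 4954, 22 and 99 reads in the same order, with a ratio of 0.231 (0.138 to 0.369) in OvP. *IAA10* (Bra015289) had 346, 527, 47 and 117 reads and was called lower in OvP, at 0.417. *IAA29* and the genes of the noncanonical group that lack a full degron in *Arabidopsis* (*IAA20*, *IAA30*, *IAA31* and *IAA34*) had at most 8 reads per copy in any library.

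**Figure D2:**
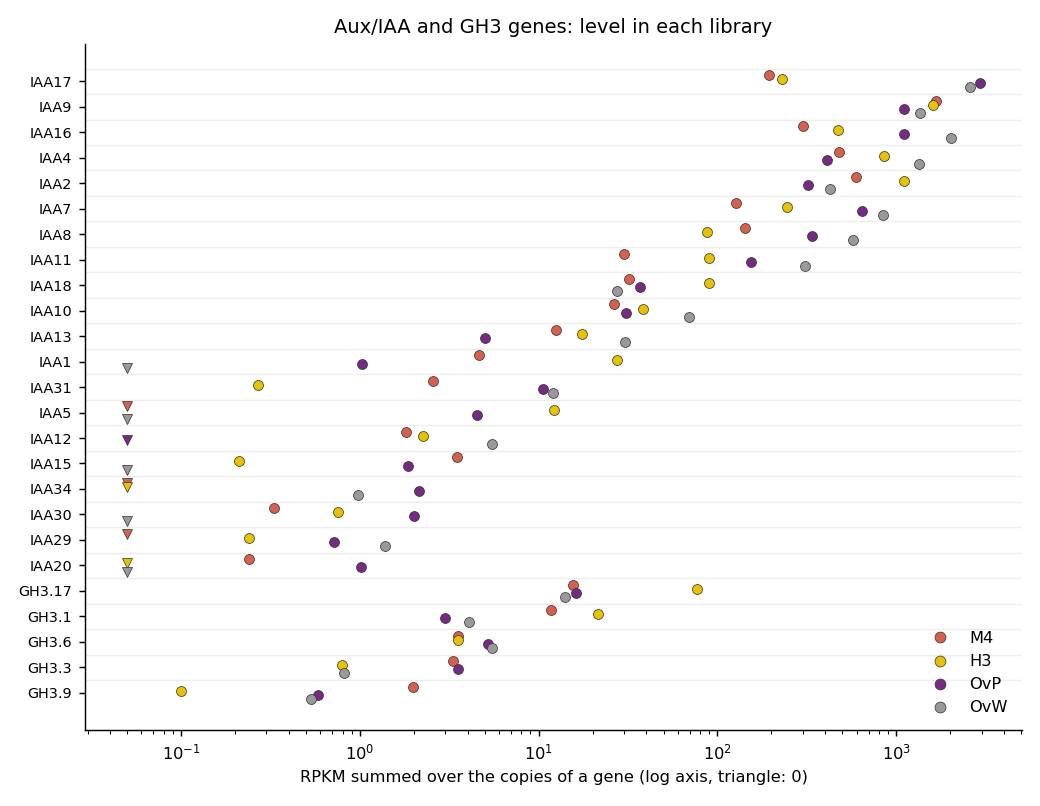
Deposited RPKM summed over the *B. rapa* copies of each Aux/IAA and GH3 gene (log axis) in M4, H3, OvP and OvW, 1 library each, with triangles for a sum of 0; genes under 1 RPKM in every library are left out. *IAA17* reached 2933 and 2593 RPKM in OvP and OvW against 195 and 228 RPKM in M4 and H3, whereas *IAA9* lay between 1108 and 1675 RPKM in all 4 libraries.

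The *ARF* genes encode the DNA-binding partners of the Aux/IAA repressors. Their 4 lower calls among 23 tested in M4 stood against 12.7% of all genes, and the 4 among 21 in OvP against 5.76%. Their summed level was 130, 141, 120 and 168 RPKM in M4, H3, OvP and OvW, against 3625, 4876, 7104 and 9613 RPKM for the Aux/IAA genes. *ARF10* (Bra011955), a repressor type controlled by miR160 in *Arabidopsis*, had 1229, 2334, 60 and 142 reads in M4, H3, OvP and OvW. Its ratios were 0.428 (0.399 to 0.459) and 0.439 (0.319 to 0.598), so it was lower in the pigmented material of each pair, although with total reads the M4 ratio of 0.558 was not called. *ARF16* and *ARF17* are known as the further miR160 targets. *ARF16* copies Bra024109 (655, 462, 18 and 44 reads) and Bra011162 (379, 356, 29 and 63 reads) were called lower in OvP, at 0.425 (0.231 to 0.751) and 0.478 (0.297 to 0.754). The call of Bra011162 was lost with total reads. In M4 their ratios to H3 were 1.15 and 0.865, without a call. *ARF17* copy Bra003665 had 156 reads in M4 against 285 in H3, a ratio of 0.445 (0.364 to 0.543) that was lost with total reads.

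The other *ARF* genes gave few calls. *ARF19*, an activator in *Arabidopsis*, as copy Bra016517, had 54, 108, 14 and 4 reads in M4, H3, OvP and OvW, with a ratio of 0.406 (0.288 to 0.568) in M4, a call lost with total reads, and an uncalled 3.64 in OvP. *ARF6* copy Bra010776, the partner of *ARF8* in flower maturation, had 140, 84, 112 and 142 reads and was not called. Its second copy Bra038024 had 4, 0, 0 and 9 reads and was called lower in OvP, by at least 1.90-fold. *ARF11* (Bra004530) was called lower in M4 on 5 and 26 reads. *ARF1* (Bra035427) and *ARF4* (Bra002479), which with *ARF10* had the highest *ARF* levels, had 621 and 308 reads in M4 and 492 and 222 in H3 and were not called in either pair.

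*SAUR* genes had 20 lower calls among 29 tested in M4, as given above. Many lay in runs of neighbouring identifiers on chromosomes A02, A03 and A10, where 22 genes matched *SAUR19*, *SAUR20*, *SAUR22*, *SAUR23* and *SAUR24*, a group whose proteins promote cell expansion in *Arabidopsis*. These near-identical copies can exchange reads, so values of single copies are uncertain. Their sum was 2403, 4678, 157 and 344 reads in M4, H3, OvP and OvW, with ratios of 0.417 in M4 and 0.474 in OvP. Of the 22 genes, 15 were called lower in M4, against 12.7% of all genes, and 4 in OvP, against 5.76%, and 0 were called higher in either. With total reads 10 stayed lower in M4 and 4 in OvP, and at a BCV of 0.4 there were 5 and 1. Without this group, 24 of 71 tested genes were called lower in M4 and 15 of 71 in OvP, and 4 and 0 were called higher.

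The ratio differed between the runs. The 6 genes on A10 (Bra002121 to Bra002130) summed to 191, 959, 31 and 57 reads in M4, H3, OvP and OvW, a ratio of 0.162 in M4. The 4 genes on A03 (Bra006430 to Bra006435) summed to 661, 1759, 50 and 110 reads, a ratio of 0.305. The 8 genes of the first A02 run (Bra023653 to Bra023661) summed to 1243, 1375, 68 and 149 reads, a ratio of 0.735, and the 4 genes of the second (Bra026596 to Bra026599) to 308, 585, 8 and 28 reads, a ratio of 0.428. The A10 sum was thus the lowest in M4 relative to H3, whereas OvP lay below OvW in all 4 runs, at ratios from 0.297 to 0.565.

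Within the first A02 run, neighbouring genes went different ways. *SAUR22* (Bra023654) had 2, 112, 2 and 1 reads in M4, H3, OvP and OvW, and was 68.9-fold lower in M4 (ratio 0.0145, 95% interval 0.00174 to 0.0537). *SAUR24* copy Bra023657 had 10, 116, 20 and 20 reads, a ratio of 0.0701 (0.0327 to 0.134) in M4 and 1.04 in OvP. In contrast, *SAUR20* copies Bra023655 (251 and 172 reads) and Bra023660 (380 and 269 reads) and *SAUR24* copy Bra023661 (356 and 235 reads) had more reads in M4 than in H3 and were not called. Bra023661 had 22 reads in OvP and 65 in OvW, a called ratio of 0.352 (0.206 to 0.578).

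The 2 most abundant *SAUR24* copies of H3 were among the most reduced in M4. Bra006435 had 191 RPKM in H3 and 23.4 in M4, from 905 and 105 reads, a ratio of 0.0943 (0.0763 to 0.116). It was also called lower in OvP, with 16 reads against 38 in OvW, at 0.438 (0.228 to 0.804). Bra002121 had 137 RPKM in H3 and 10.7 in M4, from 653 and 48 reads, a ratio of 0.0597 (0.0436 to 0.0801), and 4 and 15 reads in OvP and OvW. The sum over the 11 *SAUR24* copies was 796, 2528, 92 and 188 reads, a ratio of 0.256 (0.236 to 0.277) in M4. The 7 *SAUR20* copies summed to 1148 and 1356 reads in M4 and H3, at 0.688, and were not called. *SAUR19* (Bra006430), with 256, 316, 27 and 68 reads, was called only in OvP, at 0.413 (0.254 to 0.653). *SAUR20* copy Bra026598, with 293, 527, 0 and 13 reads, was 2.21-fold lower in M4, a call lost with total reads. The same copy was at least 2.93-fold lower in OvP.

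Outside this group, copies of *SAUR68* and *SAUR9* were called. The 3 copies of *SAUR68* were all called lower in M4 (Bra032317 not with total reads), with sums of 577, 1402, 5 and 33 reads and ratios of 0.334 (0.303 to 0.369) in M4 and 0.157 (0.0480 to 0.406) in OvP. Its copy Bra010827 had 194, 603, 0 and 17 reads in M4, H3, OvP and OvW, and was at least 3.97-fold lower in OvP. *SAUR9*, whose *Arabidopsis* protein inhibits a phosphatase that restrains the plasma membrane proton pump, had sums of 262, 487, 3 and 25 reads over 3 copies, at 0.437 (0.375 to 0.509), a call lost with total reads, and 0.125 (0.0241 to 0.409). Its copy Bra017747 had 13 reads in OvW and 0 in the other 3 libraries, at least 2.93-fold lower in OvP. *SAUR21* and *SAUR36* had at most 20 and 4 reads and were not called.

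**Figure D3:**
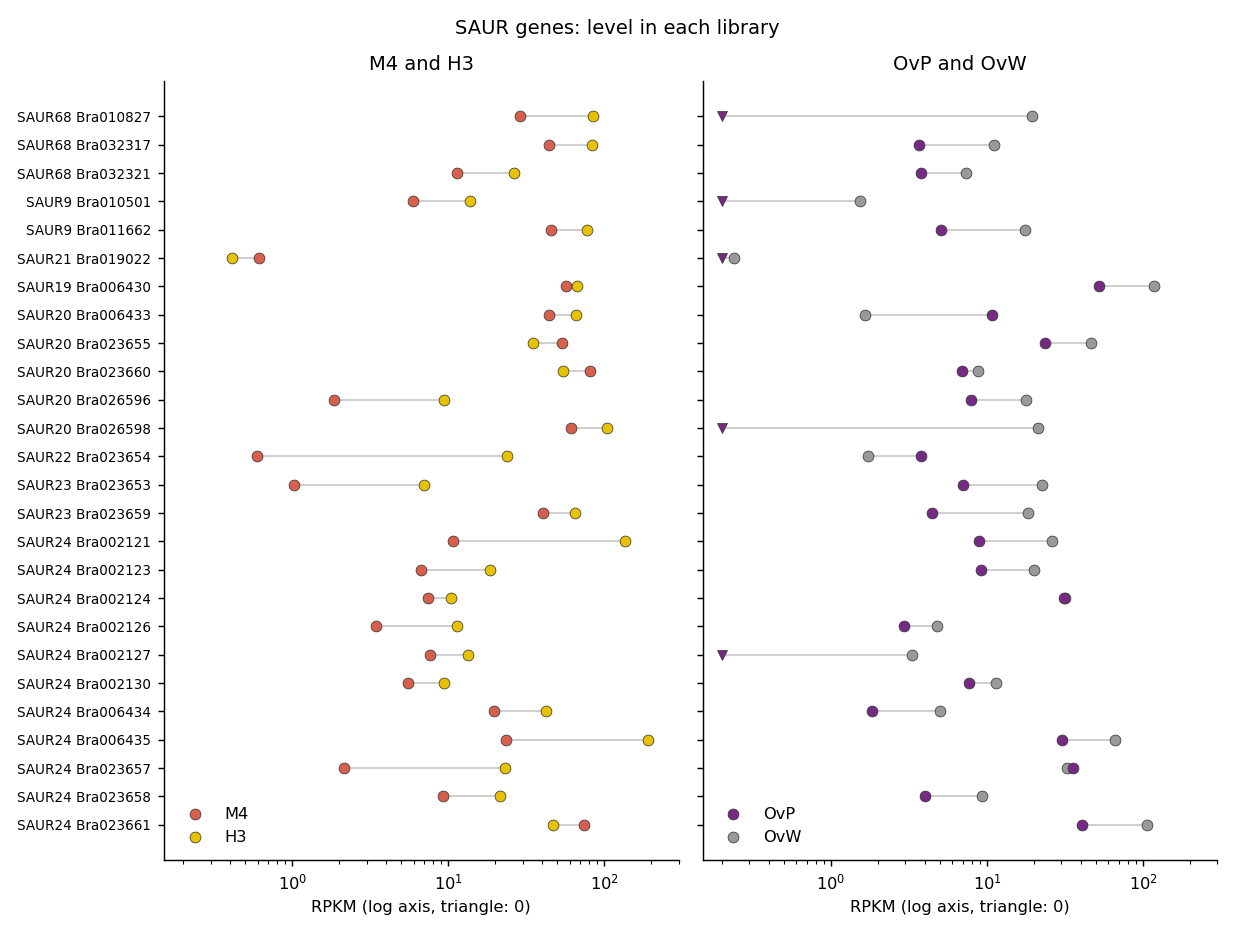
Deposited RPKM (log axis) of the *SAUR* genes with 20 or more reads over the 4 libraries, for M4 and H3 (left) and OvP and OvW (right), 1 library each, with triangles for 0. M4 lies left of H3 for most genes, by the longest distance for *SAUR22* Bra023654 and *SAUR24* Bra002121, and OvP lies left of OvW for most genes.

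The *GH3* genes moved in both directions in M4. *GH3.17*, which conjugates auxin to glutamate in *Arabidopsis*, had 15.5, 77.3, 16.3 and 14.0 RPKM in M4, H3, OvP and OvW over its copies. Bra032876 had 409, 2279, 7 and 6 reads in M4, H3, OvP and OvW, a ratio of 0.146 (0.131 to 0.162) in M4. Copy Bra030074 had 46, 116, 49 and 47 reads, a ratio of 0.322 (0.224 to 0.457) in M4 and 1.08 in OvP. *GH3.1* (Bra039832) had 335, 645, 10 and 15 reads and was called lower in M4, at 0.422 (0.369 to 0.482), a call lost with total reads.

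The higher calls were those of *GH3.3* and *GH3.9*. *GH3.3* (Bra039186) had 96, 23, 12 and 3 reads in M4, H3, OvP and OvW, and was 3.39-fold higher in M4 (2.13 to 5.60). Its ratio of 4.16 in OvP was not called. *GH3.9* (Bra004432) had 58 reads in M4 against 2 in each of the other libraries, 23.6-fold higher than in H3 with an interval of 6.24 to 199. Both were expressed weakly, at 3.33 and 1.99 RPKM in M4. *GH3.6* was not called, with 103, 110, 18 and 21 reads over its copies. None of the *GH3* genes was called in OvP, and 1, *GH3.3*, had an unadjusted p under 0.05.

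Genes of the same families that the table lists under mutant or synonym names were counted separately, by *Arabidopsis* identifier. There were 40 of them. Of 36 tested in M4, 3 were called higher and 15 lower, against 16.2% and 12.7% of all genes. With total reads there were 4 and 9, against 22.9% and 7.98%. Of 39 tested in OvP, 5 were called higher and 6 lower, against 5.60% and 5.76%. Of the Aux/IAA genes among them, 1 of 12 tested was called higher and 8 lower in M4, against 16.2% and 12.7% of all genes, and the lower calls became 4 with total reads and 3 at a BCV of 0.4. In OvP 5 of 15 were called higher and 1 lower, against 5.60% and 5.76%, and at a BCV of 0.4 there were 0 and 1. *IAA14* (listed as *SLR*, Bra039855), a repressor of lateral root initiation, had 3857, 18659, 209 and 99 reads in M4, H3, OvP and OvW. It was lower in M4, at 0.168 (0.162 to 0.174), and higher in OvP, at 2.19 (1.72 to 2.82). *IAA19* (*MSG2*), known for tropic growth and cell elongation in *Arabidopsis*, had 3 copies, each called higher in OvP. Bra021117 had 7713, 7594, 2750 and 1114 reads, a ratio of 2.57 (2.39 to 2.75) in OvP and 0.825 in M4, and Bra001598 had 2013, 4191, 433 and 132 reads, at 3.41 (2.80 to 4.17) in OvP and 0.390 (0.370 to 0.412) in M4, a call lost with total reads. *IAA3* (*SHY2*, Bra032521), with 629, 1221, 59 and 317 reads, was lower in both pairs, at 0.419 and 0.193, the former lost with total reads.

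The symbol *PAP1* in this table stood for *IAA26*, phytochrome-associated protein 1, and not for the MYB regulator of anthocyanin that shares the name. Its 3 copies were all called lower in M4, and the lowest, Bra022164, had 294, 1522, 3 and 10 reads in M4, H3, OvP and OvW, a ratio of 0.157 (0.138 to 0.178). *IAA27* (*PAP2*, Bra011082) had 107 reads in M4 and 43 in H3 and was 2.02-fold higher in M4 (1.41 to 2.95).

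Among the *ARF* genes under other names, 2 of 13 were called higher and 1 lower in M4, against 16.2% and 12.7% of all genes. With total reads there were 3 and 0, against 22.9% and 7.98%. In OvP 0 of 12 were called higher and 4 lower, against 5.60% and 5.76%. With total reads there were 1 and 3, against 6.43% and 5.16%. The *ARF2* copy Bra018098 had 69 reads in M4 and 0 in H3, OvP and OvW, at least 18.7-fold higher in M4 than in H3. It had reads in the addition line only. *ARF3* (*ETT*), a regulator of gynoecium patterning, had 29, 9, 20 and 69 reads at copy Bra021885, higher in M4 at 2.62 (1.21 to 6.29) and lower in OvP at 0.301 (0.173 to 0.501), and 58, 61, 4 and 39 reads at Bra005465, lower in OvP at 0.107 (0.0277 to 0.295). *ARF8*, which was named after its values were seen because of its role in *Arabidopsis* petals, had 3824, 2420, 1063 and 1448 reads at Bra028110 and 3310, 1588, 151 and 327 reads at Bra004125. Its M4 to H3 ratios of 1.28 and 1.69 were not called, and Bra004125 was lower in OvP at 0.480 (0.393 to 0.584), a call lost with total reads.

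Of the *GH3* genes under other names, 6 of 11 were called lower in M4, against 12.7% of all genes, and the other 5 were not called. *GH3.10* (Bra034205) had 900, 7220, 39 and 27 reads in M4, H3, OvP and OvW, a ratio of 0.101 (0.0944 to 0.109). *JAR1* (*GH3.11*, Bra000421), whose enzyme makes the active jasmonate conjugate rather than an auxin conjugate, had 311, 758, 8 and 42 reads and was called lower in both pairs, at 0.333 (0.291 to 0.381) and 0.198 (0.0803 to 0.427).

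Upstream of the response families, 18 genes of the TAA and YUCCA enzymes of auxin synthesis were tested in M4. Of these, 0 were called higher and 7 lower, against 16.2% and 12.7% of all genes, the same counts with total reads (22.9% and 7.98% of all genes), and at a BCV of 0.4 there were 3 lower. All 10 genes with 10 or more reads in the pair had a ratio below 1, with a median log2 ratio of −2.01. *YUC6* (Bra020509), a flavin monooxygenase of the last synthesis step, had 15, 85, 6 and 1 reads in M4, H3, OvP and OvW, a ratio of 0.143 (0.0769 to 0.250). *YUC9* (Bra015293) had 8, 46, 0 and 1 reads, at 0.141 (0.0576 to 0.302). *YUC8* (Bra011055), the *YUC* gene with the most reads in M4 and H3 and named after its values were seen, had 561 and 1320 reads there, at 0.345 (0.312 to 0.382). *TAA1* (listed as *WEI8*, Bra007924), with 10263 and 16030 reads in M4 and H3, was not called, at 0.520. In OvP, 0 of 19 synthesis genes were called in either direction, and 2 had an unadjusted p under 0.05, both with a ratio above 1. All 5 genes with 10 or more reads in that pair had a ratio above 1, with a median log2 ratio of 0.37. With total reads 1 was called higher and 0 lower in OvP, against 6.43% and 5.16% of all genes.

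Of 11 genes of auxin oxidation and conjugate hydrolysis, 4 were called higher and 1 lower in M4, against 16.2% and 12.7% of all genes, while 6 were not called, and at a BCV of 0.4 there was 1 higher call. *DAO2*, an auxin dioxygenase, was higher at both copies: Bra019677 had 302, 42, 36 and 51 reads, at 5.84 (4.22 to 8.27), and Bra019678 had 315, 62, 17 and 85 reads, at 4.13 (3.14 to 5.51). Bra019678 was lower in OvP, at 0.208 (0.116 to 0.353). *ILR1* (Bra040608), an amidohydrolase that frees auxin from its conjugates, was lower in M4 on 13 and 28 reads, a ratio of 0.377 whose call was lost with total reads. *DAO1* copy Bra019676 had 0, 1, 19 and 3 reads and was 6.58-fold higher in OvP (1.94 to 34.7).

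Carriers were divided, with 6 of 26 called higher and 7 lower in M4, against 16.2% and 12.7% of all genes. With total reads there were 9 and 6, against 22.9% and 7.98%, and at a BCV of 0.4 there were 1 and 1. The influx carrier *AUX1* (listed as *WAV5*, Bra005136) had 7862, 2025, 2373 and 2986 reads, 3.16-fold higher in M4 (3.00 to 3.31). *LAX1* (Bra009636), with 2, 27, 27 and 73 reads, was lower in both pairs, at 0.0602 (0.00694 to 0.240) and 0.384 (0.238 to 0.605). *LAX2* (Bra031158), with 8, 30, 31 and 12 reads, was lower in M4 at 0.217 and higher in OvP at 2.68 (1.34 to 5.74).

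Of 11 *TIR1* and *AFB* receptor genes, 0 were called higher and 1 lower in M4, against 16.2% and 12.7% of all genes. The lower call was *AFB5* (Bra000604) with 463 and 766 reads at 0.491, a call lost with total reads, and 0 were called in OvP, where 1 gene in each direction had an unadjusted p under 0.05. Of 12 *TPL* and *TPR* co-repressor genes, 3 were called lower in M4 and 0 higher, against 12.7% and 16.2% of all genes. With total reads 2 were lower and 1 higher, against 7.98% and 22.9%. *TPR3* copy Bra020567 had 260, 2540, 108 and 198 reads, a ratio of 0.0832 (0.0729 to 0.0945), whereas its second copy Bra009930 had 672 and 668 reads in M4 and H3. *TPL* copy Bra026112 had 558 and 1278 reads, at 0.355 (0.321 to 0.392). No co-repressor gene was called in OvP, where 1 had an unadjusted p under 0.05 with a ratio above 1 and 4 with a ratio below 1.

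**Figure D4:**
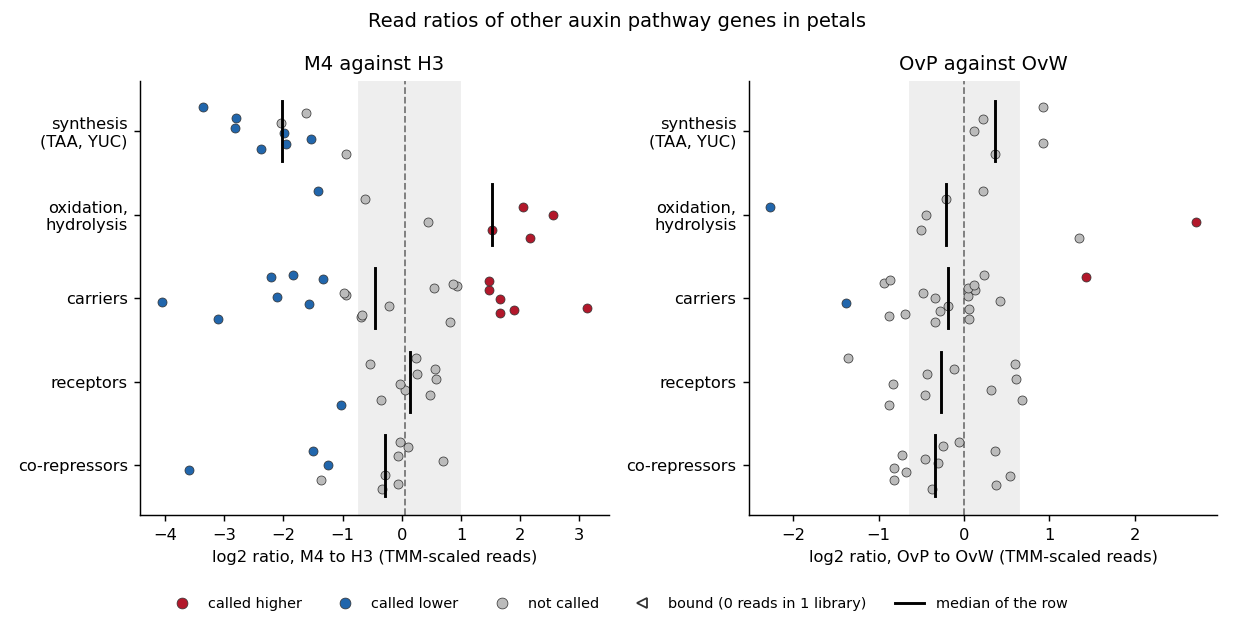
Log2 ratio of TMM-scaled reads of other auxin pathway genes with 10 or more reads in the pair, for M4 to H3 (left) and OvP to OvW (right), with colours, bars and band as for the families. All 10 synthesis genes lie below 0 in M4, receptor genes spread around the median of all genes, and few genes were called in OvP.

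Because reads can move between near-identical copies, the counts were repeated on reads summed by *Arabidopsis* gene. Of 46 summed genes tested in M4, 3 were called higher and 17 lower, against 16.6% and 13.7% of 19245 summed genes. With total reads 4 were higher and 9 lower, against 24.2% and 8.23% of summed genes, and at a BCV of 0.4 there were 2 and 4, against 3.92% and 2.42%. Of 45 tested in OvP, 1 was called higher and 11 lower, against 6.07% and 6.63% of 19096 summed genes. With total reads 1 was higher and 10 lower, against 7.10% and 5.81%, and at a BCV of 0.4 there were 0 of either, against 0.749% and 1.02%. The higher call was *ARF19*, with 27 reads in OvP and 11 in OvW, at 2.55 (1.22 to 5.70), and it was lost with DESeq2 size factors. The lower calls in M4 by family were 8 of 19 Aux/IAA, 2 of 13 *ARF*, 5 of 9 *SAUR* and 2 of 5 *GH3* genes.

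The copy that held most reads was often different between the species. Of the 27 genes with 2 or more copies, the leading copy was the same in M4 and H3 for 22 and in OvP and OvW for 19, but the same in H3 and OvW for 11, and the same in all 4 libraries for 9. *IAA9* was led by Bra024406 in M4 and H3 and by Bra031850, with 1054 and 1108 reads, in OvP and OvW. A single copy held 90% or more of the reads in 8 of 26 genes with reads in M4, 9 of 27 in H3, 5 of 26 in OvP and 3 of 25 in OvW. Expression of a copy and its similarity to the *O. violaceus* sequence could not be told apart here.

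The pairs were then compared gene by gene, over the 55 auxin genes with 10 or more reads in each pair. Both ratios were below 1 for 33 of them, 60.0%, against 27.2% of 17341 genes with that depth, and both were above 1 for 4, 7.27%, against 28.7%. The ratio was below 1 only in M4 for 11 genes and only in OvP for 7. Most of the 55 genes were thus below 1 in each pair. High shares of genes lower in both pairs therefore do not by themselves show that the pairs went together gene by gene. The Spearman correlation of the ratios was 0.19 over the 55 genes and 0.16 over all genes with that depth. With total reads, 27 genes (49.1%) were below 1 in both, against 18.6% of all genes. A call in the lower direction in both pairs was made for 8 of the 55 genes, 14.5%, against 2.68% of all genes. Called higher in both were 0, against 3.06% of all genes, and called in opposite directions 0, against 2.91%. Opposite calls did occur among the family genes under other names, as for *IAA14* Bra039855 and *ARF3* Bra021885. With total reads 4 genes (7.27%) were called lower in both, against 1.65% of all genes, and at a BCV of 0.4 there were 0, against 0.196%. The 8 were *IAA2* Bra033890, *IAA4* Bra027504, *IAA11* Bra011045, *IAA13* Bra022934, *ARF10* Bra011955, *SAUR20* Bra026598, *SAUR24* Bra006435 and *SAUR68* Bra010827. With only 2 pairs, 1 library each, this is a description of 4 libraries.

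**Figure D5:**
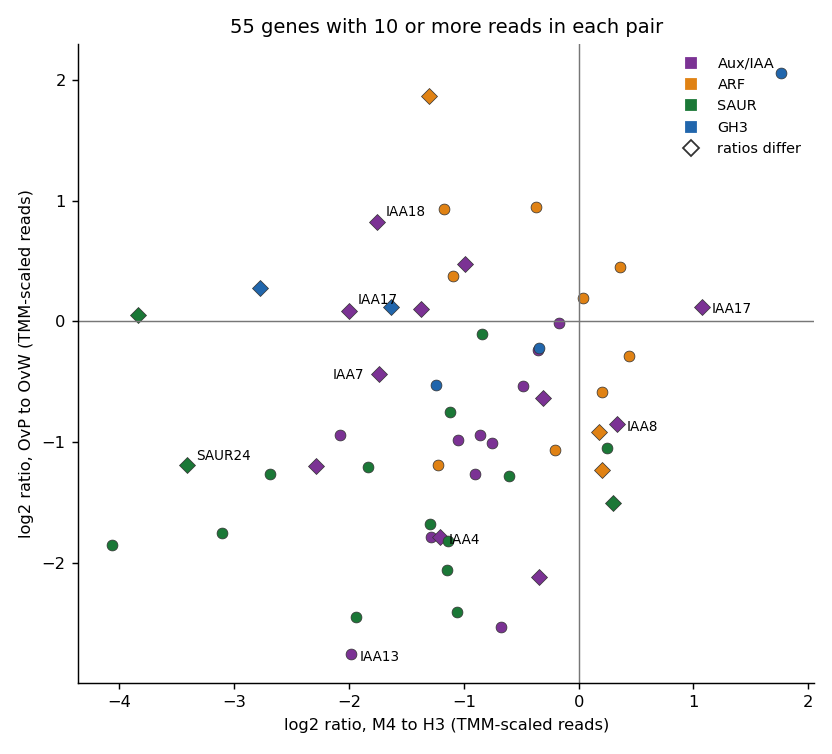
Log2 ratio of OvP to OvW against log2 ratio of M4 to H3 for the 55 auxin genes with 10 or more reads in each pair, coloured by family; diamonds mark the 19 genes whose ratios differed between the pairs. Most points, 33 of 55, lie in the lower left, and 4 lie in the upper right.

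The size of the ratio differed between the pairs for 19 of the 55 genes at an adjusted p of 0.01 or less (conditional exact test, Benjamini-Hochberg over 17341 genes), a share of 34.5% against 35.3% of all genes. The lowest p belonged to *IAA8* (Bra030219), with 1836, 1181, 510 and 956 reads, whose ratio was 1.26 in M4 and 0.554 in OvP, neither called. *IAA7* Bra033886 was reduced more in M4 (0.300) than in OvP (0.739), whereas *IAA4* Bra027504 was reduced more in OvP (0.291 against 0.432). *SAUR24* copies Bra023657 (0.0701 in M4, 1.04 in OvP) and Bra023661 (1.23 and 0.352) differed between the pairs in opposite senses.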

How the data were processed

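RNA of petals from M4, H3, OvP and OvW was sequenced as 1 polyA, directional, paired-end library each. The authors aligned reads to the *B. rapa* genome by TopHat and named Cufflinks, Cuffdiff, DESeq and edgeR. Versions and the genome release, like the counting tool and its strand setting, were not given in the sources used here. Read counts and RPKM per gene were deposited by the authors. RPKM divided by reads did not follow the listed gene lengths, so RPKM was used as deposited.

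Reads were tested per pair with edgeR 4.0.16 (binomTest, an exact binomial test at a dispersion of 0) after TMM scaling in R 4.3.3, over all genes with at least 1 read. Intervals are 95% Clopper-Pearson. Ratios against 0 reads are given as the 95% limit or, for *ARF2* and in the figures of ratios, with 3 reads in place of the 0. Medians take genes with 10 or more reads in the pair. The difference between pairs was a conditional exact test on 4 libraries. The scripts were tested on simulated data.

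Genes and lists were chosen with earlier results of these data known. Named genes were, per family and pair, up to 4 called higher and 4 lower ranked by the interval bound nearest 1, the 3 highest by mean RPKM, the 5 lowest p for a difference between pairs, genes with copies called both ways, and per pathway list up to 2 called in each direction; others were chosen after their values were seen. Alternatives were total reads, DESeq2 1.42.0 size factors, a minimum of 10 reads (50 for the difference), an assumed BCV of 0.1, 0.2 or 0.4, Benjamini-Hochberg p and RPKM folds. Leaving out the *SAUR19* to *SAUR24* group was added after the data were seen.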

Additional observations from a re-analysis of the deposited data

Results flagged for a closer look

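The ratio within a pair differed between the *Brassica* and the *O. violaceus* pair for 19 genes, and the 5 with the lowest adjusted p (conditional exact test, Benjamini-Hochberg over 17341 genes, counting error only, 1 library each) were all Aux/IAA genes. *IAA8* Bra030219 was 1.26 times as high in M4 as in H3 but 0.554 times as high in OvP as in OvW (adjusted p = 5.28e-35). *IAA7* Bra033886 stood at 0.300 in M4 and 0.739 in OvP (adjusted p = 4.84e-34). *IAA17* Bra032520 stood at 0.250 and 1.06 (adjusted p = 1.13e-16). *IAA17* Bra030560 stood at 2.11 and 1.08 (adjusted p = 3.38e-14). *IAA18* Bra014303 stood at 0.296 and 1.77 (adjusted p = 7.15e-12). All 5 have many reads in at least 1 pair, and a difference at this level was found for 35.3% of all genes tested.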

How the results depend on the processing

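No paired analysis was possible because each material is 1 library and the labels give no replicate numbers. Leaving out a library was not run for the same reason.

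In M4 against H3, the 39 lower calls among 93 tested genes became 24 with total reads and 9 at an assumed BCV of 0.4. The 4 higher calls became 2 at a BCV of 0.4. Without the *SAUR19* to *SAUR24* group fewer genes were tested, and 24 of 71 were lower, 33.8% against 12.7% of all genes. In OvP against OvW, the 19 lower calls became 12 at a BCV of 0.2 and 3 at 0.4. Sums by *Arabidopsis* gene gave 17 lower calls in M4, 9 with total reads and 4 at a BCV of 0.4. In OvP the 11 lower sums became 0 at a BCV of 0.4, and the 1 higher sum became 0 with DESeq2 size factors and at a BCV of 0.4. The other auxin pathway genes were the families under other names, synthesis, oxidation and hydrolysis, carriers, receptors and co-repressors. In M4 36, 18, 11, 26, 11 and 12 of them were tested, and in OvP 39, 19, 11, 29, 11 and 12. They gave 13 higher and 34 lower calls in M4, and 3 and 9 at a BCV of 0.4. In OvP they gave 7 and 8, and 0 and 2 at that BCV. The shares of all genes were 16.2% and 12.7% in M4, and 4.48% and 2.72% at that BCV. In OvP they were 5.60% and 5.76%, and 1.88% in either direction at that BCV. The calls by family at a BCV of 0.4 were 1 higher and 3 lower for Aux/IAA, 0 lower for *ARF*, 5 lower for *SAUR* and 1 in each direction for *GH3* in M4, and 0, 0 and 3 lower for Aux/IAA, *ARF* and *SAUR* in OvP. With total reads 13 of 29 *SAUR* genes and 1 of 23 *ARF* genes were lower in M4, against 7.98% of all genes. No direction of a called ratio was reversed. Of 71 calls on named genes, 61 stayed past the threshold with total reads, 71 with DESeq2 size factors, 60 at a BCV of 0.2 and 28 at 0.4.

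A BCV is an assumed spread between plants, which these libraries do not measure. Depth limits the *O. violaceus* pair most, where 40 of 93 tested genes had 20 or more reads.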
